A study of Bos taurus with 22 samples.

Results

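The miR-2284 and miR-2285 family of cattle was followed in plasma on Day 60 of pregnancy and on Day 0. Members were all bovine miRNAs of the deposited count table whose name begins with miR-2284 or miR-2285, those with few reads included. There were 53 of them among 844 listed mature miRNAs, of which 611 were bovine and 233 human homologues. Of the 53 members, 29 carried a miR-2284 name and 24 a miR-2285 name.

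The samples came from 11 Holstein-Friesian heifers, each bled on both days, which gave 22 plasma small RNA libraries. The Day 60 group were the heifers in pregnancy after synchronised oestrus and artificial insemination, and the Day 0 group were the same heifers at insemination. Among these libraries there was no group of unbred heifers at the later day, so Day 60 differs from Day 0 in pregnancy, in elapsed time and in sampling date together, and these cannot be told apart. Blood was drawn from the jugular vein into EDTA tubes, and the small RNA of the cell-free plasma was sequenced.

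miRNAs are short RNAs that guide Argonaute proteins to messenger RNAs, mostly through the seed near their 5′ end, and lower the translation or the stability of those messengers. miR-2284 and miR-2285 are large families annotated in cattle and related ruminants, with many similar copies spread over the genome, so that a short read can match several members. In blood plasma miRNAs circulate in vesicles, lipoproteins and protein complexes, and come from blood cells, vessel walls and organs. A lower plasma level through fewer releasing cells and one through less RNA released per cell cannot be told apart in such libraries.

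Levels below are reads per 1000000 miRNA reads of the library (RPMM), and a library is named by its day and heifer number. Day 60 libraries held 304117 to 12775451 miRNA reads, the median being 7597827, and Day 0 libraries held 1912290 to 6839128, the median being 4536808. The Day 60 library of heifer 17 was the one with 304117 reads, where 1 read is worth the most RPMM. Intervals for single libraries are Wilson intervals at 95%, and they cover counting error only, since reads after PCR are not independent molecules.

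The family took a small share of plasma miRNA reads. Its 53 members together reached 0.211 to 0.425% of the miRNA reads on Day 60, with a median of 0.303%, and 0.242 to 0.340% on Day 0, with a median of 0.288%. In the NCBI RefSeq gene table of the ARS-UCD2.0 assembly, which is not the bosTau4 build the reads were aligned to, 191 of 1032 miRNA genes were family genes, or 18.5%. That table held at least 1 gene for 52 of the 53 members, all but miR-2284d, and more than 1 gene for 11 of them. The count table gave 1 position for each member, on 21 chromosomes, with 3 members on unplaced sequence and 7 on chromosome 5.

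A few members carried nearly all of the family's reads. The 9 members with a mean above 25 RPMM held 97.0% of the family reads, 15 members between 1 and 25 RPMM held 2.79%, and 29 members under 1 RPMM held 0.232%. miR-2284y came first at a mean of 1629 RPMM and was the 56th most abundant of the 844 miRNAs. miR-2284z followed at 590 RPMM, in 89th place. Next came miR-2284x at 168 RPMM, miR-2285k at 149 RPMM, miR-2284ab at 106 RPMM, miR-2285t at 104 RPMM, miR-2284w at 84.5 RPMM, miR-2285q at 35.8 RPMM and miR-2284aa at 25.4 RPMM. The gap between miR-2284ab and miR-2285t was smaller than the spread of either over the 22 libraries (SD 31.1 RPMM for miR-2284ab and 54.4 RPMM for miR-2285t). Members named miR-2284 held 88.1% of the family reads and those named miR-2285 held 11.9%.

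**Figure D1:**
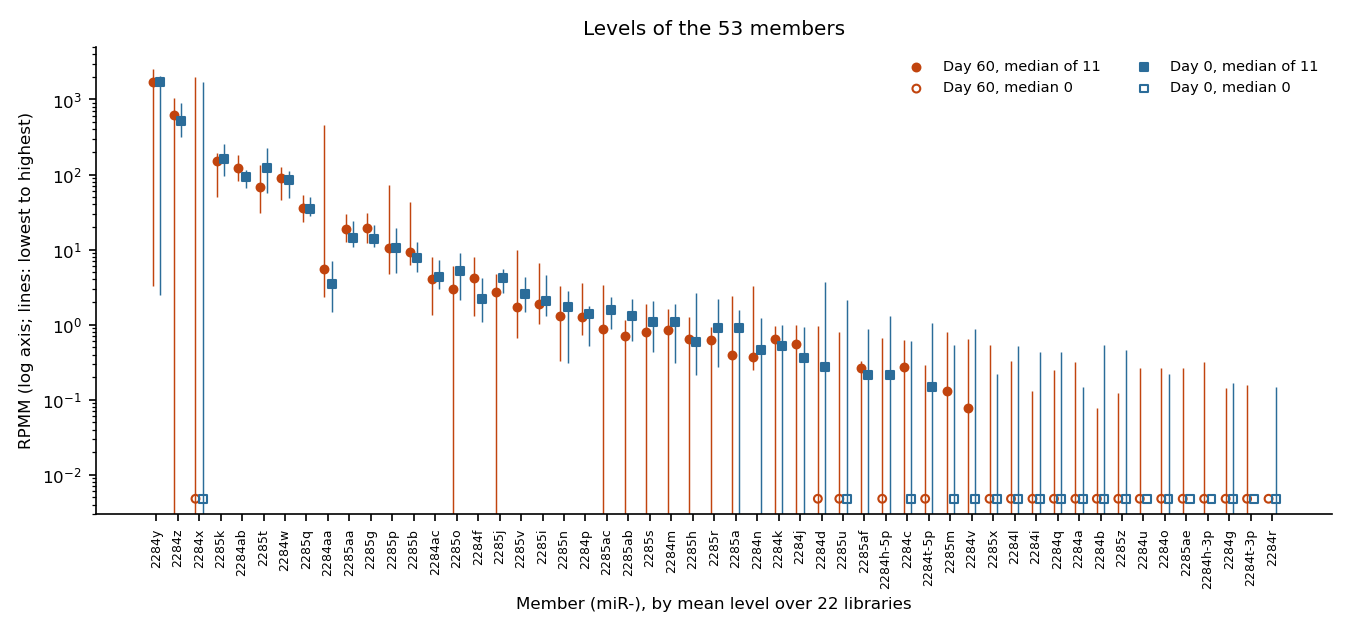
Level of each of the 53 members in RPMM on a log axis, ordered by mean level over the 22 libraries. Circles are Day 60 medians and squares Day 0 medians of 11 libraries, vertical lines run from the lowest to the highest library, and open symbols at the foot mark a median of 0. miR-2284y stands first at 1698 RPMM on Day 60 and 1716 RPMM on Day 0, miR-2284x has a median of 0 on both days with 1 library at 1973 RPMM on Day 60 and 1 at 1715 RPMM on Day 0, and miR-2284aa reaches 460 RPMM in a Day 60 library.

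In a few libraries a member with many reads elsewhere had few or none, while another member stood high. miR-2284y and miR-2284x are listed at nearly the same place, on the minus strand of chromosome 1 (bosTau4) at 3474027 to 3474047 for miR-2284y and 3474029 to 3474049 for miR-2284x, so that 19 bases are shared. miR-2284x had 0 reads in 20 of the 22 libraries, where 3 reads, the limit that a count of 0 allows, would stand at 0.235 to 1.57 RPMM. In those 20 libraries miR-2284y had 1396 to 2517 RPMM, with a median of 1726. The picture was the reverse in the other 2 libraries. In the RefSeq table miR-2284x has 1 gene, within the span of the Rac activator gene TIAM1, and none of the 7 genes of miR-2284y overlaps it.

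In the Day 60 library of heifer 17, miR-2284x had 600 reads, or 1973 RPMM (95% interval 1821 to 2137), and miR-2284y had 1 read. In the Day 0 library of heifer 11, miR-2284x had 11726 reads, or 1715 RPMM (95% interval 1684 to 1746), and miR-2284y had 17 reads. In both libraries the level of miR-2284x therefore lay within the range that miR-2284y had in the other 20. The sum of the pair was 1396 to 2517 RPMM over all 22 libraries. Its coefficient of variation was 15.8%, against 36.6% for miR-2284y alone. The pair was summed after these values were seen, and miR-2284x had reads only where miR-2284y was low. The lower value is therefore a description with no test. For comparison, the coefficient of variation of miR-128, which is used as a scaling miRNA in one of the alternatives, was 15.7%.

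A second pair behaved alike in 1 library. miR-2284z is listed on the plus strand of chromosome 5 at 46456954 to 46456975 and miR-2284aa on the minus strand of chromosome 15 at 52994055 to 52994075, and the RefSeq table holds 7 genes for miR-2284z and 4 for miR-2284aa. miR-2284z had 319 to 1062 RPMM in 21 libraries and 0 reads in the Day 60 library of heifer 17. In that library miR-2284aa had 140 reads, or 460 RPMM (95% interval 390 to 543), against 1.46 to 9.05 RPMM in the other 21. At the median level of the others, 178 reads of miR-2284z would have stood in that library. The sum of miR-2284z and miR-2284aa was 321 to 1071 RPMM, with a coefficient of variation of 35.5%, against 42.6% for miR-2284z alone. The pair was chosen because miR-2284aa stood high where miR-2284z was 0. The lower value follows from that choice and is no test.

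Smaller members of the same library also stood high. miR-2285p had 22 reads in the Day 60 library of heifer 17, or 72.3 RPMM (95% interval 47.8 to 110), against a median of 10.5 and a highest value of 19.3 RPMM in the other 21. miR-2285b had 13 reads there, or 42.7 RPMM (95% interval 24.98 to 73.1), against a median of 9.10 and a highest value of 12.6 RPMM. miR-2285k was low there, with 52.6 RPMM against a median of 150. miR-2285p, miR-2285b and miR-2285k were picked out after the values of this library were seen. The intervals make no allowance for that choice. How reads were assigned among members was not tested, since the counts carry no sequence.

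**Figure D2:**
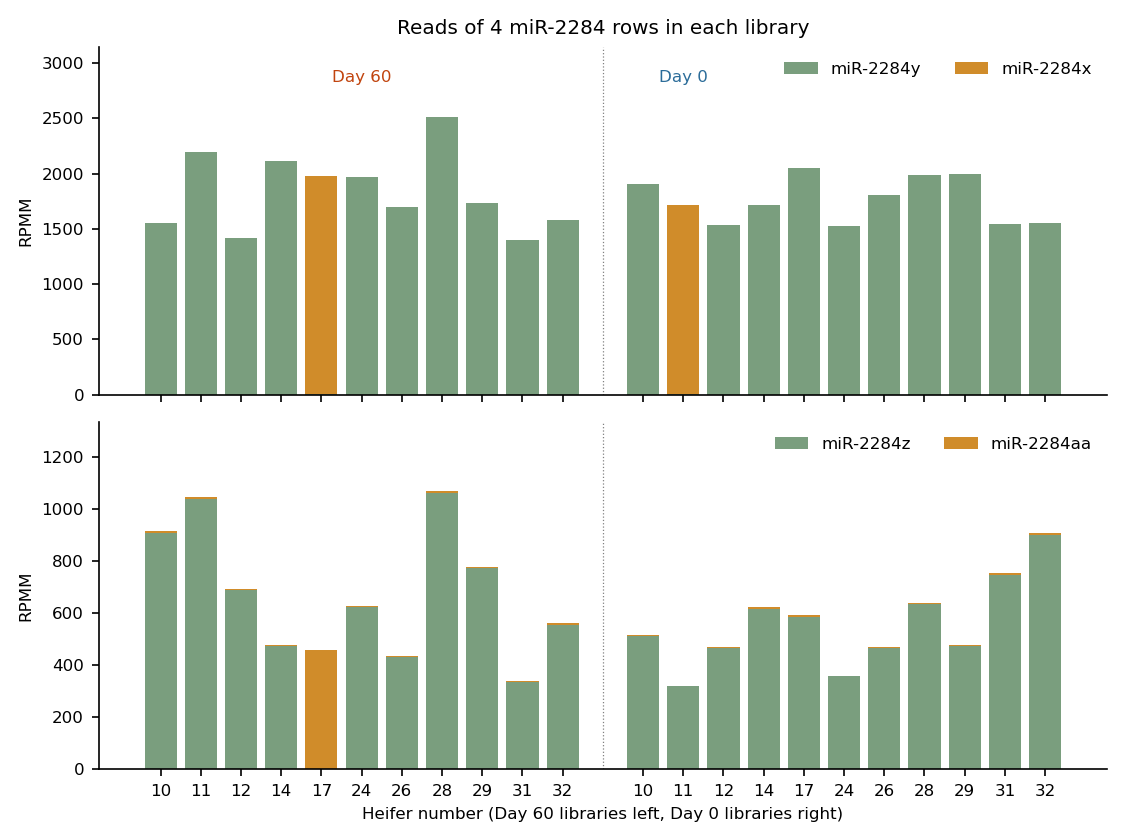
RPMM of miR-2284y stacked with miR-2284x (upper panel) and of miR-2284z stacked with miR-2284aa (lower panel) in each library, Day 60 left and Day 0 right, with heifer numbers below. The stack of miR-2284y and miR-2284x stays between 1396 and 2517 RPMM, and its colour changes over in the Day 60 library of heifer 17 and the Day 0 library of heifer 11. The stack of miR-2284z and miR-2284aa changes over only in the Day 60 library of heifer 17.

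Other overlaps were present in the listing without such a change-over. miR-2285q and miR-2285z lie on opposite strands of chromosome 20 and share 22 bases, from 14205882 on, and had 4296 and 3 reads over all libraries. miR-2285o and miR-2284h-5p lie on opposite strands of chromosome 5 and share 20 bases, from 124162587 on, and had 518 and 24 reads.

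Differential expression was tested with edgeR's quasi-likelihood test on the counts, with TMM normalisation and heifer as a block. A miRNA was tested if more than 8 libraries of 1 day or the other exceeded 25 RPMM. The FDR is the p adjusted by the Benjamini-Hochberg method over all 195 miRNAs tested, called under 0.05, and log2 fold-changes are Day 60 over Day 0. In all, 69 of the 195 miRNAs (35.4%) passed the threshold, 34 higher (17.4%) and 35 lower (17.9%) on Day 60. This split depended on the scaling, with 11 higher and 57 lower on library totals, 21 higher and 58 lower on upper quartiles, and 35 higher and 20 lower on miR-128. The total depended on single heifers, since 42, 38, 36 and 43 miRNAs passed without heifer 10, 11, 28 and 29, and 98 without heifer 32.

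Of the 53 members, 7 were abundant enough to be tested, and 2 of the 7 passed, miR-2284ab higher and miR-2285t lower on Day 60. The other 5 did not pass. The median log2 fold-change of the 7 was 0.18, against -0.062 over all 195 miRNAs. With library totals both medians were lower, at -0.012 for the members and -0.25 over all miRNAs, and with upper quartile scaling they were 0.018 and -0.22. With so few members tested, the count stands beside the 35.4% as a description.

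miR-2284ab was higher on Day 60. It had 81.8, 120 and 180 RPMM as lowest, median and highest level on Day 60, against 66.4, 92.9 and 113 RPMM on Day 0. The days overlapped, but 7 of 11 Day 60 libraries stood above the highest Day 0 library and 5 of 11 Day 0 libraries stood below the lowest Day 60 library. The edgeR test gave a 1.57-fold change (log2 0.65, SE 0.15, FDR 0.00866). Its size depended on the scaling, at log2 0.46 on library totals (edgeR FDR 0.0434) and 0.49 on upper quartiles (edgeR FDR 0.0207). On miR-128 it was 0.74 (edgeR FDR 0.0143). Without heifers 11 and 17 it was 0.59 (edgeR FDR 0.0453), where 8.6% of the miRNAs tested passed. On TMM-normalised reads the level was higher on Day 60 in 10 of 11 heifers, all but heifer 32, and on RPMM in 9, all but heifers 17 and 32.

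Heifer 11 had the widest gap, with 180 RPMM on Day 60 and 68.3 RPMM on Day 0. In the shallow Day 60 library of heifer 17 the level rested on 25 reads, or 82.2 RPMM (95% interval 55.7 to 121), against 92.9 RPMM on Day 0. With each heifer left out in turn the log2 fold-change was 0.59 to 0.72 and the FDR 0.00175 to 0.0283. With no filter beyond 1 read, where 731 miRNAs were tested, miR-2284ab did not pass (log2 fold-change 0.59, edgeR FDR 0.113). The miRNA is listed on the plus strand of chromosome 6 (bosTau4) at 106089738 to 106089758. In the RefSeq table its single gene lies within the span of AFF1, which encodes a component of the super elongation complex of RNA polymerase II transcription.

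miR-2285t was lower on Day 60. It had 30.4, 69.2 and 132 RPMM as lowest, median and highest level on Day 60, against 56.2, 123 and 224 RPMM on Day 0. Of the 11 Day 0 libraries 5 stood above the highest Day 60 library, that of heifer 32, and 2 of 11 Day 60 libraries stood below the lowest Day 0 library. Those 2 were from heifers 14 and 31, which also had the lowest levels on Day 0. The edgeR test gave a 0.638-fold change (log2 -0.65, SE 0.18, FDR 0.0166), and the level was lower on Day 60 in 10 of 11 heifers, all but heifer 32, on TMM-normalised reads and on RPMM alike. The size of the change depended on the scaling. It was log2 -0.84 on library totals (edgeR FDR 0.00392), -0.81 on upper quartiles (edgeR FDR 0.0108) and -0.57 on miR-128 (edgeR FDR 0.0395).

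The call of miR-2285t was lost in 3 alternatives. The edgeR FDR was 0.0992 with all libraries thinned to 304117 reads (log2 fold-change -0.50), where 31.9% of the miRNAs tested passed. It was 0.0579 without heifers 11 and 17 (-0.60), where 8.6% passed, and 0.0629 with no filter beyond 1 read (-0.71), where 6.57% passed. With a single heifer left out it was 0.00188 to 0.0491. miR-2285t is listed on the minus strand of chromosome 3 (bosTau4) at 8649929 to 8649950. Its single RefSeq gene lies within the span of FCGR2B, which encodes the inhibitory Fc gamma receptor of B cells and myeloid cells.

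**Figure D3:**
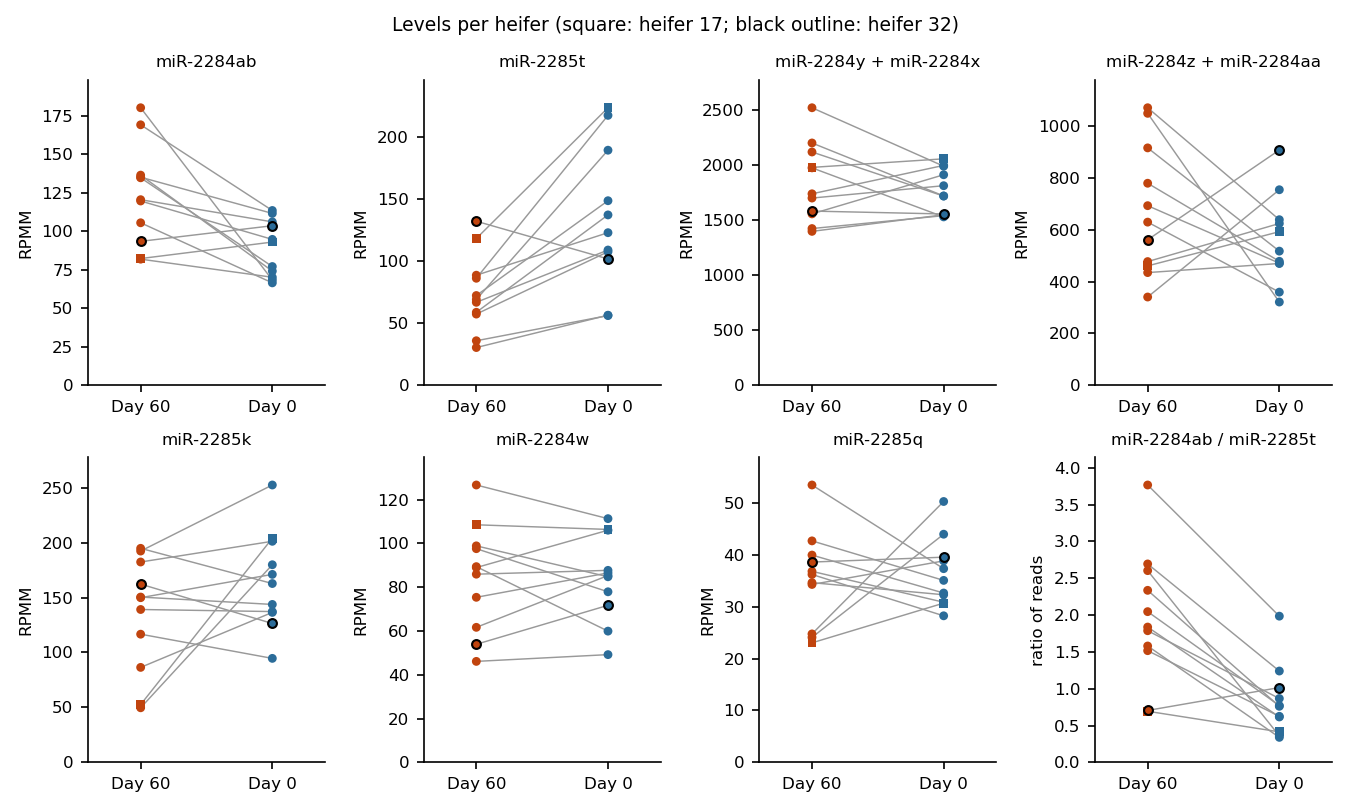
Level of each tested member in each heifer, Day 60 left and Day 0 right in every panel, with a line joining the samples of a heifer; the vertical axis is RPMM from 0, and in the last panel the ratio of miR-2284ab to miR-2285t reads. Squares mark heifer 17 and black outlines heifer 32, and miR-2284y and miR-2284z are shown summed with miR-2284x and miR-2284aa. The miR-2284ab lines are higher on Day 60 in 9 heifers, the miR-2285t lines are lower on Day 60 in 10, and the ratio is higher on Day 60 in 10.

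The 10 heifers with higher miR-2284ab on Day 60 on TMM-normalised reads were the same 10 with lower miR-2285t. The ratio of miR-2284ab to miR-2285t reads within a library does not depend on the scaling. It was 0.694, 1.84 and 3.77 as lowest, median and highest value on Day 60, against 0.340, 0.762 and 1.99 on Day 0. Heifer 32 was the exception, with 0.706 on Day 60 and 1.02 on Day 0. The lowest Day 60 ratio, 0.694, was that of the shallow library of heifer 17, with 25 reads of miR-2284ab and 36 of miR-2285t. The log2 ratio averaged 0.81 ± 0.76 on Day 60 and -0.48 ± 0.77 on Day 0 (SD, n = 11 each), with a mean within-heifer difference of 1.30 ± 0.86 (SD). The ratio was formed after both changes had been seen, so it is a description with no test.

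The most abundant members did not pass the test, alone or summed. miR-2284y had 3.29, 1698 and 2517 RPMM as lowest, median and highest level on Day 60, against 2.49, 1716 and 2054 RPMM on Day 0, and its lowest libraries were those of the change-over. By edgeR its difference was 0.25 on the log2 scale (SE 0.76, FDR 0.80), which became -0.071 without heifer 11 and 0.52 without heifer 17. Summed with miR-2284x, the pair had 1396, 1737 and 2517 RPMM on Day 60, against 1527, 1717 and 2054 RPMM on Day 0. The sum did not pass either, at a log2 fold-change of 0.24 with a smaller error (SE 0.13, edgeR FDR 0.145). On TMM-normalised reads the sum was higher on Day 60 in 11 of 11 heifers, but on RPMM in 5 of 11, so this direction rests on the scaling.

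miR-2284z had 0, 624 and 1062 RPMM as lowest, median and highest level on Day 60, against 319, 514 and 900 RPMM on Day 0. By edgeR its difference of 0.20 on the log2 scale (SE 0.50, FDR 0.761) became 0.45 without heifer 17 and turned to -0.56 under limma-voom. Summed with miR-2284aa, the pair had 340, 629 and 1071 RPMM on Day 60, against 321, 517 and 907 RPMM on Day 0, and a difference of 0.44 on the log2 scale that did not pass (SE 0.22, edgeR FDR 0.130). On TMM-normalised reads the sum was higher on Day 60 in 8 of 11 heifers, all but heifers 17, 31 and 32, and on RPMM in 6. Summing both pairs left the counts of calls at 69 miRNAs and 2 members. The alternatives with summed pairs and without heifers 11 and 17 were chosen after seeing the data.

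miR-2285k had 49.7, 150 and 195 RPMM as lowest, median and highest level on Day 60, against 94.7, 163 and 252 RPMM on Day 0. The 3 lowest Day 60 libraries, of heifers 14, 17 and 31, stood below every Day 0 library, while 6 heifers were higher on Day 60 on TMM-normalised reads. On the log2 scale the difference was -0.15, not past the threshold (SE 0.21, edgeR FDR 0.581). miR-2285q, whose RefSeq gene lies within the splicing regulator gene SREK1, had 23.0, 36.2 and 53.4 RPMM on Day 60, against 28.2, 35.04 and 50.2 RPMM on Day 0. By edgeR its difference was 0.14 on the log2 scale (SE 0.16, FDR 0.509), and it turned to -0.050 on library totals and -0.025 with upper quartile scaling. miR-2285k and miR-2285q were lower on Day 60 in the same 5 heifers, 14, 17, 24, 28 and 31, on TMM-normalised reads. On RPMM the heifers differed. There miR-2285k was lower in 6 heifers, 10, 14, 17, 28, 29 and 31, and miR-2285q in 5, 14, 17, 28, 31 and 32. In heifer 17 the Day 60 level of miR-2285q rested on 7 reads.

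miR-2284w, whose RefSeq gene lies within DOCK11, a guanine nucleotide exchange factor gene, had 46.1, 89.0 and 127 RPMM on Day 60, against 49.2, 85.3 and 111 RPMM on Day 0. The ranges of the days nearly coincided. By edgeR its difference was 0.18 on the log2 scale (SE 0.13, FDR 0.281), and -0.012 on library totals.

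**Figure D4:**
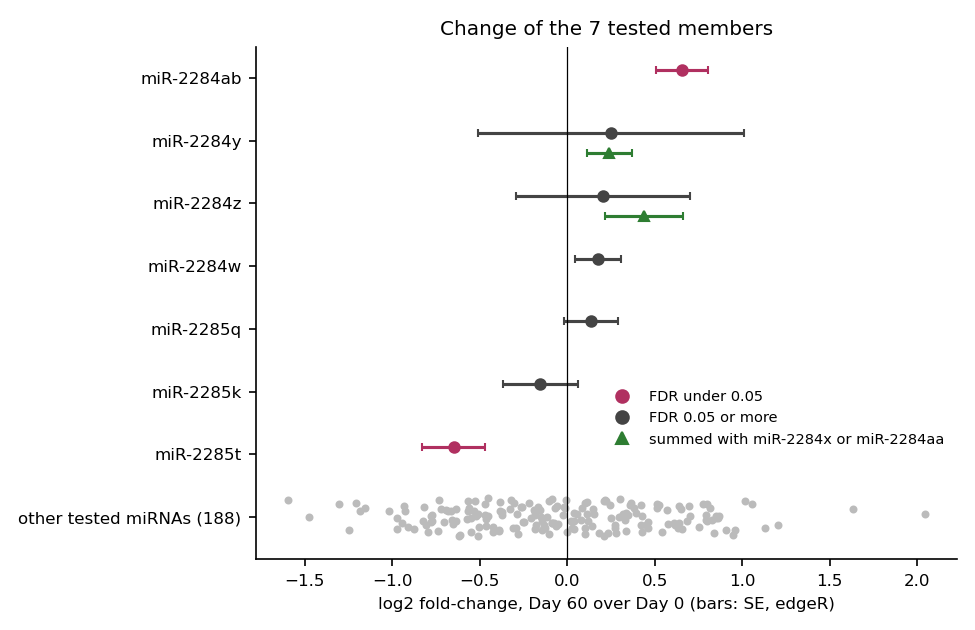
Log2 fold-change of Day 60 over Day 0 for the 7 tested members, with bars of 1 SE derived from the edgeR test, and for the other 188 tested miRNAs as grey points. miR-2284ab at 0.65 and miR-2285t at -0.65 passed an FDR of 0.05, and the green triangles show the narrower bars of miR-2284y and miR-2284z when summed with miR-2284x and miR-2284aa.

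The 46 members below the filter were mostly near the limit of detection. Over 10 reads were found in every library for 6 of the 53 members, in at least 1 library for 27, and in no library for 26, of which none had more than 79 reads over all libraries. Fewer than 10 reads over all libraries were found for 13 members. The number of members above 10 reads was 8, 18 and 22 per library as lowest, median and highest on Day 60, against 12, 16 and 23 on Day 0. Thinned to 304117 reads per library, it was 6, 7 and 8 on Day 60, against 6, 6 and 7 on Day 0, so the ranges were narrow at equal depth.

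Below miR-2284x and miR-2284aa, the most abundant members under the filter were miR-2285aa and miR-2285g. miR-2285aa had 12.8, 18.8 and 29.6 RPMM as lowest, median and highest level on Day 60, against 10.9, 14.2 and 24.2 RPMM on Day 0. miR-2285g had 12.1, 19.6 and 30.6 RPMM on Day 60, against 10.7, 13.8 and 21.2 RPMM on Day 0. With edgeR's filterByExpr in place of the 25 RPMM filter they were tested and did not pass, at log2 fold-changes of 0.50 (SE 0.18, edgeR FDR 0.0558) and 0.65 (SE 0.23, edgeR FDR 0.0556).

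miR-2285p had a median of 10.5 RPMM on Day 60 and 10.6 RPMM on Day 0, and miR-2285b had one of 9.31 RPMM on Day 60 and 7.81 RPMM on Day 0. miR-2284ac had 4.09 RPMM on Day 60 and 4.28 RPMM on Day 0. miR-2285o had 3.03 RPMM on Day 60 and 5.26 RPMM on Day 0. None of the 4 passed under filterByExpr. There the edgeR FDR of miR-2285b was 0.0928, at 0.54 on the log2 scale (SE 0.23), and the FDR of miR-2285p, miR-2284ac and miR-2285o was 0.441 or more.

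miR-2284f passed the threshold in both settings that tested it, though it had only 423 reads over all libraries. It had 1.32, 4.22 and 7.98 RPMM as lowest, median and highest level on Day 60, against 1.09, 2.20 and 4.18 RPMM on Day 0. Day 60 was higher in 9 of 11 heifers on RPMM. Under filterByExpr, where 68 of 336 miRNAs (20.2%) passed, its change was 1.01 on the log2 scale (SE 0.23, edgeR FDR 0.0152), and 3 of 17 tested members passed. With no filter beyond 1 read, where 48 of 731 miRNAs (6.57%) passed, it was 0.93 (SE 0.29, edgeR FDR 0.0422), and miR-2284f was the 1 of 51 tested members that passed. It is listed on the plus strand of chromosome 5 (bosTau4) at 104174500 to 104174519. In the RefSeq table its gene lies within SLC24A4, a gene for a sodium, potassium and calcium exchanger. Whether both are the same place in the genome was not tested.

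The summed family level differed between the days by less than its spread on RPMM. Its summed level was 2114, 3028 and 4248 RPMM as lowest, median and highest on Day 60, against 2423, 2883 and 3405 RPMM on Day 0. The mean was 3058 ± 596 RPMM on Day 60 and 2911 ± 318 RPMM on Day 0 (SD, n = 11 each). The mean within-heifer difference of 147 ± 604 RPMM (SD) came with 7 of 11 heifers higher on Day 60. On TMM-normalised reads the difference was 520 ± 405, with 10 of 11 higher, so its size rests on the scaling. miR-2284y and miR-2284x together held 60.2 ± 5.94% of the family level on Day 60 and 60.5 ± 4.48% on Day 0 (SD, n = 11 each).

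Other miRNAs gave the setting for these values. Over all 195 miRNAs tested, 35.4% passed by edgeR, 43.6% by DESeq2 and 37.4% by limma-voom. The list counts below stand beside these shares as a description. Bovine miRNAs numbered from miR-2286 to miR-2489, taken as neighbours in name only, comprised 149 entries, of which 2 were tested. Of those 2, 0 passed by edgeR, at an unadjusted p under 0.05 as well, and 0 by DESeq2 and by limma-voom. Of 6 red cell miRNAs tested 2 passed by edgeR, both higher on Day 60, with 3 at an unadjusted p under 0.05, 2 by DESeq2 and 2 by limma-voom. Their summed level was 134033 to 388765 RPMM on Day 60, against 74510 to 346917 RPMM on Day 0. Of 6 leukocyte miRNAs tested 3 passed by edgeR, all higher on Day 60, with 5 at an unadjusted p under 0.05, 5 by DESeq2 and 3 by limma-voom. Their summed level was 34657 to 68815 RPMM on Day 60, against 32566 to 47486 RPMM on Day 0. Of 2 liver miRNAs tested, miR-192 and miR-194, 0 passed by edgeR, 0 at an unadjusted p under 0.05, and 0 by DESeq2 and by limma-voom. The liver list also held miR-122, which was below the filter and not tested. Of 3 platelet and endothelial miRNAs tested 0 passed by edgeR, with 1 at an unadjusted p under 0.05, 1 by DESeq2 and 0 by limma-voom. Below 0 on the log2 scale by edgeR were miR-363 of the red cell list (-0.0027) and miR-223 of the leukocyte list (-0.19). So were both tested liver miRNAs, miR-192 (-0.18) and miR-194 (-0.060). Of the platelet and endothelial list, miR-126-5p (-0.18) and miR-126-3p (-0.15) were below 0, and miR-21-5p was above it (0.35). No listed marker was at 0 in all libraries. Their part in the levels of miR-2284ab and miR-2285t was not tested.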

How the data were processed

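Small RNA libraries from plasma of 11 heifers, on Day 60 of pregnancy and on Day 0, were made with the TruSeq kit. The authors removed adapters and short reads, assigned reads to mature miRNAs of miRBase on bosTau4 using sRNAbench (genome mode) and Bowtie 0.12.9, and deposited counts per mature miRNA. A second table, deposited by the authors as RPMM with bovine miRNAs and human homologues each scaled to their own total, holds 2 scales and was therefore read as a score and used only to find repeated values. At a tolerance of 0.2%, 314 values of the 2 tables repeated another library of the same day, and 5 of these concerned members, all in the Day 0 library of heifer 14.

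RPMM were recomputed on all miRNA reads. Counts were tested with edgeR 4.0.16 (R 4.3.3), as described with the results. The SE given with an edgeR value was derived from the test. It is the size of the log2 fold-change divided by the square root of the test statistic. Heifer was a block because the labels give the animal of each sample. Deviations from day means correlated at a mean of 0.141 between libraries of a heifer and -0.00628 between heifers. Alternatives were other scalings, DESeq2 1.42.0, limma 3.58.1, likelihood ratio tests, leaving out each heifer or the block, other filters, thinning, and repeated values set to 0. Python 3.11.15, pandas 2.3.3, numpy 2.4.6, scipy 1.17.1 and matplotlib 3.10.9 were also used, and scripts were tested on simulated data.

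Members, lists and tests were chosen with earlier results of these data known. Members are named if tested, among the 8 most abundant of the rest, or called under an alternative. They are also named if 10 times above their median in a library, or 10 times below a median of 25 RPMM or more. miR-2284x and miR-2284aa are among the 8. miR-2284d falls under this rule, at 56.5 times its median of 0.0658 RPMM in the Day 0 library of heifer 17, on 8 reads. miR-2284h-5p and miR-2285z fall outside it and were chosen once their values were known. RefSeq positions were not mixed with bosTau4 positions. RT-qPCR data and raw reads were not analysed here.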

Additional observations from a re-analysis of the deposited data

How the results depend on the processing

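Both member calls kept their direction under all 26 alternatives. Of these, 22 left the count of members past the threshold at 2. It was 3 under filterByExpr, and 1 with no filter beyond 1 read, with thinning and without heifers 11 and 17. miR-2284ab had a log2 fold-change of 0.59 with no filter, and miR-2285t had -0.71 with no filter, -0.50 with thinning and -0.60 without heifers 11 and 17, none of these past the threshold. All miRNAs past the threshold numbered 69, but 16 without heifers 11 and 17. With 1 heifer left out the ranges were 36 to 98 miRNAs, 2 to 2 members, 0.59 to 0.72 for miR-2284ab, -0.77 to -0.55 for miR-2285t, -0.071 to 0.52 for miR-2284y, 32.4 to 239 RPMM for the family difference and 0.5 to 1.8 for the difference in members above 10 reads. Directions turned for miR-2284w on library totals (-0.012), miR-2285q on library totals (-0.050) and upper quartile scaling (-0.025), and miR-2284z under limma-voom (-0.56). The cause was not tested. No replicate block gave 83 miRNAs and 2 members, and dropping the pairing changed no member call.

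Summing members of the same mature sequence or seed was not run, since no sequence was used here. Depth limits the 26 members with no library above 10 reads, and the Day 60 library of heifer 17, where single members rest on few reads.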

Other observations

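A library 10 times or more below the median of a miRNA was found for 7 of the 199 miRNAs with a median of 25 RPMM or more. miR-2284y and miR-2284z were among these 7. The other 5 were let-7e, miR-133a, miR-152, miR-199c and miR-339b, named after their values were seen. Whether another miRNA stood high in their low libraries was not tested. let-7e was low in heifer 24 on both days, at 5.07 RPMM on Day 60 and 4.30 RPMM on Day 0, against a median of 60.7 RPMM. miR-199c had a median of 4497 RPMM and 0 to 1.86 RPMM in 4 libraries, those of heifers 10, 17 and 32 on Day 60 and of heifer 17 on Day 0. miR-339b had a median of 1157 RPMM and 1.12 to 3.29 RPMM in the Day 60 libraries of heifers 14, 17 and 32. The Day 60 library of heifer 17 was thus among the low ones for miR-2284y, miR-2284z, miR-199c and miR-339b.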
